A study of Homo sapiens with 2 samples.

Results

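The kinesin motor genes were examined in HCT116 cells, an established epithelial line from a human colorectal carcinoma. Every gene whose symbol is KIF or KIFC followed by a number and at most a letter A to C was taken, which gave 41 measured genes of 18132. Each was represented by its brightest probe set that carries no other gene symbol. RNA was taken 72 h after the cells were infected with lentivirus (multiplicity of infection 20). The virus of the control group carried a non-targeting shRNA (shNC), and that of the knockdown group carried an shRNA directed at RAP1 (shRAP1, named sh-RAP1-4# in the labels), so both groups were infected and no uninfected cells were analysed here. Each group was 1 culture on 1 array. Culture and treatment therefore cannot be told apart, no test or p-value was possible, and every difference below is a description of 2 arrays. The name RAP1 is shared by the telomere protein TERF2IP and by small GTPases, and TERF2IP was the one at 47.6% of its control value, 1311 in shNC and 624 in shRAP1, on 1 probe set. RAP1A and RAP1B, the GTPase genes, stood at 88.0% and 93.3% on their brightest probe sets. All 4 RAP1A probe sets were lower, with log2 differences between −0.35 and −0.18. All 3 RAP1B probe sets were lower too, between −0.15 and −0.02.

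Values are probe set intensities on a linear scale, and differences are shRAP1 minus shNC after log2. A gene was called past the floor where the mean of its 2 log2 values reached 6.29 (78.1 on the linear scale), the median of all probe sets. Of the 41 kinesins, 30 passed it and 11 did not. Intensities of different probe sets are not comparable as levels of different genes, so only the 2 arrays were compared for each gene. The epithelial markers EPCAM, KRT18 and CDH1 were bright on both arrays (6661 and 6292, 8075 and 8580, 1557 and 1697). KRT20, another marker of that list, was past the floor but not far from it, at 103 and 93.1. VIL1 and LGALS4, markers of differentiated gut epithelium, were below the floor among the 9 epithelial markers, and are named here after their values were seen. All 5 fibroblast markers were below it, and so were 3 of the 4 measured leukocyte markers, with CD68 just past it at 81.5 and 89.5.

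Kinesins are ATP-driven motors that walk along microtubules or take them apart at their ends. Mitotic kinesins build the spindle, move chromosomes and organise the midzone where the cell divides, and their transcripts accumulate towards mitosis in dividing cells. Transport kinesins carry vesicles, organelles and protein complexes in cells at all stages. Many genes needed late in the cell cycle have a promoter element named CHR (cell cycle genes homology region), which is bound by the DREAM and MuvB complexes, together with CCAAT boxes that bind the factor NF-Y. The 41 kinesins were divided by textbook role into 14 mitotic, 17 transport and 10 other genes, the last mostly tied to cilia, signalling or little known functions.

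The promoters of both classes were read first, since they show what the mitotic kinesins share apart from their function. The stretches shown run from position −100 to position 12 around the transcription start (position 1 is the first transcribed base), 5′ to 3′ on the strand of the gene, from RefSeq on build GRCh38.p14. The capitals mark a CHR element (TTTGAA, its reverse complement TTCAAA, or TTCGAA) or an NF-Y box (CCAAT or its reverse complement ATTGG). The first 5 are mitotic kinesins with the CHR element and the NF-Y box near each other, KIFC1 is the mitotic kinesin with the highest difference, and KIF3B and KIF3C are transport kinesins without the element.
KIF4A, chrX:70290004-70290115, plus strand: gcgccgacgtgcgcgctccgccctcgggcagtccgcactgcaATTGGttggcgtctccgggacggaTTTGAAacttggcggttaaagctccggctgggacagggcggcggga
KIF14, chr1:200620740-200620851, minus strand: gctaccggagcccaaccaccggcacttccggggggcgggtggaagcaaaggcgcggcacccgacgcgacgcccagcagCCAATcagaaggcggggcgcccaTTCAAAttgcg
KIF11, chr10:92593030-92593141, plus strand: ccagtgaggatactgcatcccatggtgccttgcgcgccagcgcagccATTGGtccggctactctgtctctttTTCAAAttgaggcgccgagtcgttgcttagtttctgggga
KIF18A, chr11:28108145-28108256, minus strand: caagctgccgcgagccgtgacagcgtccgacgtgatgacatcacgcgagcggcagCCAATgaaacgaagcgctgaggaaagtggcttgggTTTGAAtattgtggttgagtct
KIF22, chr16:29790651-29790762, plus strand: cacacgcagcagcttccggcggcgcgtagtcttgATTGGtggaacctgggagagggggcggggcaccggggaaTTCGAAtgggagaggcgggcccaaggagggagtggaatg
KIFC1, chr6:33391723-33391834, plus strand: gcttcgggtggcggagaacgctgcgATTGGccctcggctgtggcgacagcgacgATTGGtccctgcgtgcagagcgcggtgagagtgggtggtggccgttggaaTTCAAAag
KIF3B, chr20:32277551-32277662, plus strand: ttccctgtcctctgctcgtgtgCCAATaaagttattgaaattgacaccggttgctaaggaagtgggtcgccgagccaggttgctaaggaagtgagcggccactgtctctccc
KIF3C, chr2:25982486-25982597, minus strand: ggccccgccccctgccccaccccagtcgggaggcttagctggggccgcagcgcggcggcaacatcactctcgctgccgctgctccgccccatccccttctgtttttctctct

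A CHR element was found in the 300-base promoter window of 11 of 15 mitotic kinesins (73.3%), against 1 of 12 transport kinesins (8.33%) and 1 of 7 other kinesins. Among all 35116 promoter windows 16.4% held it, and among the 14425 measured genes with a window 17.6% did. These counts include KIF4B, which has a promoter window but no probe set of its own. CCAAT or its reverse complement was found in 11 of the 15 mitotic kinesins (73.3%) and in 4 of 12 transport kinesins (33.3%). The box was in 34.6% of all windows and, counted by gene like the kinesins, in 42.4% of measured genes with a window. Both motifs, at positions that did not overlap, stood together in 10 of the 15 mitotic kinesins. Of all windows 6.38% held both, and of measured genes with a window 7.37% did. In 7 mitotic kinesins (KIF4A, KIF4B, KIF11, KIF14, KIF18A, KIF18B and KIF22) the NF-Y box began 20 to 40 bases before the CHR element, a spacing chosen after the positions were seen. That arrangement was present in 0.738% of all windows, in 0.867% of measured genes with a window and in 0 of the 12 transport kinesins. The mitotic kinesins without the searched CHR letters were KIF2A, KIF2B, KIF2C and KIF20A. The first 3 depolymerise microtubules, but so does KIF18B, which holds the element. KIF5B was the transport kinesin with the element, at position −140, and KIF24 the one of the other class, at position 2. A match of letters is a description and not a measured binding site.

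**Figure D1:**
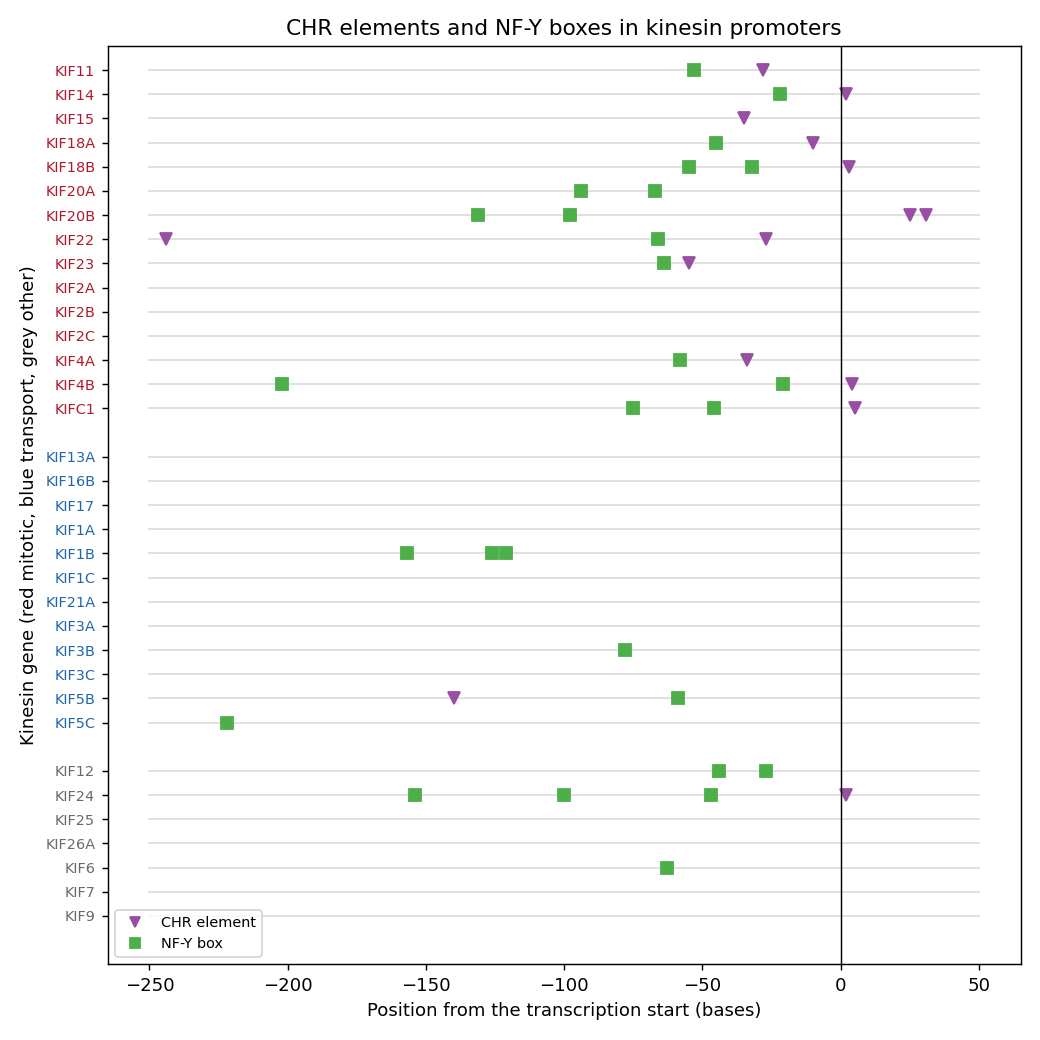
Positions of CHR elements (purple triangles) and NF-Y boxes (green squares) from the transcription start, in bases, for the 34 kinesins with a promoter window, with all windows of a gene overlaid. CHR elements of the mitotic kinesins lie close to the start, as at position −34 in KIF4A and −28 in KIF11, except in the second window of KIF22 at −244, and the transport rows hold 1 element.

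KIF4A had the lowest difference of all 41 kinesins. It encodes a chromokinesin that binds chromosome arms and, with PRC1, sets the length of microtubules in the spindle midzone. Its intensity was 355 in shNC and 275 in shRAP1, a difference of −0.37 and a level of 77.6% of the control. This placed it at rank 334 from the lowest of 18132 genes. For scale, the 500 genes of most similar brightness had differences with an SD of 0.15, a spread between genes that holds no error between cultures. Its dimmer probe set, of the kind named _x_at that can match other transcripts, stood at 123 and 120, a difference of −0.04. A probe set that carries both KIF4A and the intronless copy KIF4B, and was not used for any gene, stood at 488 and 380. Its difference of −0.36 was close to that of the brightest KIF4A probe set.

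KIF14, which acts in cytokinesis with the kinase CIT, was next among the mitotic kinesins. It stood at 391 in shNC and 323 in shRAP1, a difference of −0.28. The dimmer probe set of KIF14 went the other way, from 90.0 to 100.4 (0.16), so the gene has no common direction. KIF20B, a midzone motor needed to finish cytokinesis, stood at 194 and 165 on its 1 probe set, a difference of −0.23 where genes of like brightness had an SD of 0.16. These 3 genes were the only mitotic kinesins past the floor that were lower by more than 0.11.

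The core motors of the bipolar spindle and of chromosome movement stood closer to their control values. KIF11, which pushes spindle poles apart and is the target of anti-mitotic inhibitors, was at 641 and 595 (−0.11), with its dimmer probe set at −0.08. KIF15, which can take over part of the role of KIF11, was at 250 and 258 (0.04), so these functionally paired motors differed in opposite directions by small amounts. KIF18A, which dampens chromosome oscillations at the metaphase plate, was at 520 and 511 (−0.03). Its relative KIF18B, a microtubule depolymerase at the plus ends of astral microtubules, was at 200 and 188 (−0.09). The 2 KIF18B probe sets past the floor hold identical values and count as 1 measurement. KIF22, a chromokinesin, was at 410 and 421 (0.04), with its probe sets between −0.05 and 0.04.

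Among the KIF2 depolymerases, KIF2C, which corrects faulty kinetochore attachments, was at 1284 and 1255 (−0.03), and its dimmer probe set at 420 and 388 (−0.11). KIF2A, used at spindle poles and outside mitosis, was at 596 and 602 (0.02), while its dimmer probe sets were at −0.18 and −0.02. KIF2B was below the floor at 10.7 and 9.72, where a difference of −0.14 cannot be read as a level of expression. Of the cytokinesis motors, KIF23, the motor subunit of centralspindlin, was at 566 and 534 (−0.08) on one probe set and at 488 and 523 (0.10) on the other. KIF20A, which brings the chromosomal passenger complex to the midzone, was at 423 and 443 (0.07).

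KIFC1 stood apart at the upper end of the mitotic class. It encodes a minus-end-directed motor that clusters spindle poles. Its 1 probe set was at 268 in shNC and 309 in shRAP1, a difference of 0.21 beside an SD of 0.16 among genes of like brightness. Its promoter holds a CHR element and NF-Y boxes, as do those of KIF4A and KIF14, which were lower. Its nearest box begins 50 bases before the element, against 24 in KIF4A and 23 in KIF14. The gap was 122 bases in KIF20B (−0.23) and 39 in KIF22 (0.04). Whether the gap goes with the difference was not tested. Mitotic kinesins with the element therefore lay on both sides of 0.

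Over the 14 measured mitotic kinesins, 9 were lower in shRAP1 and 5 higher. Their median was −0.06, with a range from −0.37 to 0.21. Over all 18132 genes 45.7% were below 0, and the median was 0.02. Among the 13 mitotic kinesins past the floor, 8 were lower and the median was −0.03, beside 47% below 0 and a median of 0.01 over the 10310 genes past it. The cultures were bulk samples, so fewer cells near mitosis and less transcript per cell cannot be told apart.

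**Figure D2:**
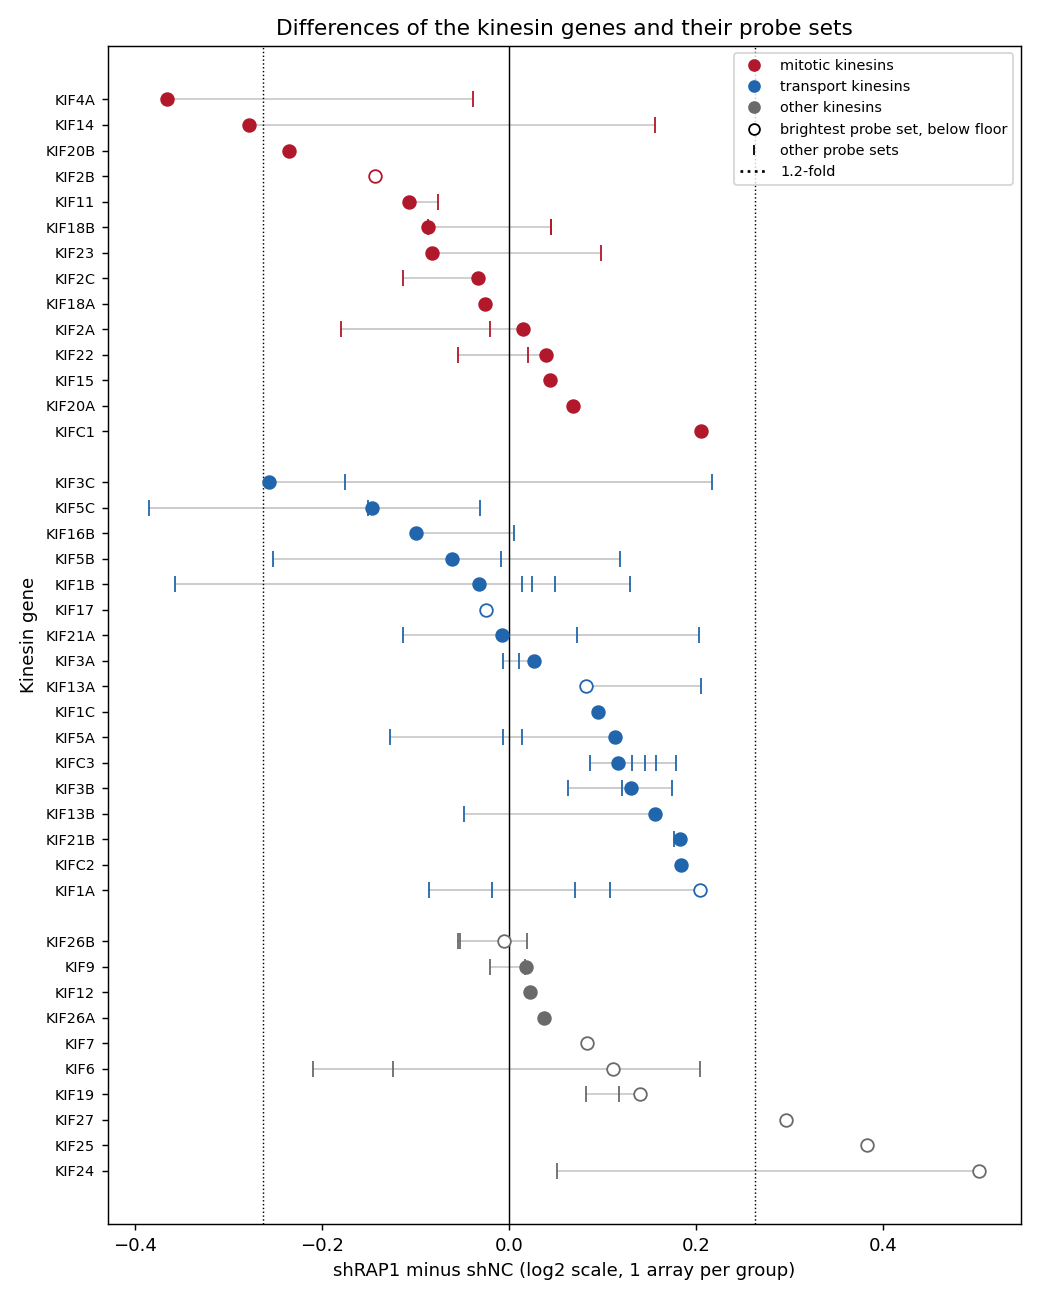
Difference between shRAP1 and shNC on the log2 scale for each of the 41 kinesins, 1 array per group, with the brightest probe set as a circle (open when below the floor), the other probe sets as ticks and dotted lines at 1.2-fold. KIF4A (−0.37) and KIF14 (−0.28) are the circles past the lower line, and the circles past the upper line are all open.

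Transport kinesins lay on both sides of 0, with more of them higher than lower. KIF5B, the ubiquitous conventional kinesin heavy chain, was at 2721 in shNC and 2609 in shRAP1, a difference of −0.06. Its other probe sets past the floor ran from −0.25 to 0.12, so they shared no direction. The neuronal heavy chains KIF5A and KIF5C were dim, with KIF5A at 106 and 114 (0.11) and KIF5C at 182 and 164 (−0.15). All 4 KIF5C probe sets were lower, 3 of them below the floor. The light chains, which link conventional kinesin to cargo, were at 0.07 for KLC1 (1054 and 1103), 0.11 for KLC2 (234 and 252) and 0.16 for KLC3 (167 and 186), and KLC4 was below the floor. Of the 5 KLC1 probe sets 3 were lower, over a range from −0.09 to 0.07, and both KLC2 probe sets were higher.

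The heterotrimeric kinesin that drives transport into cilia is made of KIF3A, a second motor chain (KIF3B or KIF3C) and the adaptor KIFAP3. KIF3A was at 469 and 477, a difference of 0.03. KIF3B was at 787 and 861 (0.13), and all 4 of its probe sets were higher, between 0.06 and 0.17. Only 2 of them were past the floor, at 0.13 and 0.06. KIF3C was the lowest transport kinesin, at 152 and 127 (−0.26), but its 2 probe sets below the floor were at 0.22 and −0.18. KIFAP3 was lower on both of its probe sets, at 497 and 433 (−0.20) and by −0.19 on the other. The subunits of this motor thus lay on both sides of 0.

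KIFC3, a minus-end motor of epithelial cell junctions and the Golgi, was higher on every one of its probe sets. It was at 552 in shNC and 599 in shRAP1 (0.12), and its 6 probe sets, all past the floor, ran from 0.09 to 0.18. KIF21B, which regulates microtubule growth as well as transport, was at 139 and 158 (0.18), with its other probe set also at 0.18. KIFC2 was at 255 and 290 (0.18) on 1 probe set. KIF21A, a close relative of KIF21B, was at 1154 and 1148 (−0.01), with 4 probe sets between −0.11 and 0.20.

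The vesicle motors related to KIF1A lay on both sides of 0. KIF1A, the synaptic vesicle precursor motor, was below the floor at 62.0 and 71.5 (0.20), with 5 probe sets between −0.09 and 0.20. KIF1B, which carries mitochondria and vesicles, was at 352 and 344 (−0.03), with 6 probe sets between −0.36 and 0.13. Of the 3 KIF1B probe sets past the floor, 1 was lower. KIF1C, a motor of dense-core vesicles and integrins, was at 411 and 439 (0.10). KIF13B was at 135 and 150 (0.16), with its other probe set, below the floor, at −0.05. KIF16B, a motor of early endosomes, was at 164 and 153 (−0.10), with its other probe set, below the floor, at 0.0053. KIF13A was below the floor with a difference of 0.08. The transport kinesin KIF17, which is outside this group, was below it too, at −0.02.

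Over the 17 transport kinesins, 7 were lower (41.2%, beside 45.7% of all genes) and 10 higher. Their median was 0.08, with a range from −0.26 to 0.20. Past the floor, 6 of 14 were lower (42.9%, beside 47% of all genes past it) and the median was 0.06. The median of the mitotic kinesins was thus below that of the transport kinesins by a difference of −0.14, or −0.09 among genes past the floor. The ranges of both classes overlapped over most of their length. With the median of all probe sets of a gene in place of the brightest, the difference between classes was −0.06.

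At a size of 1.2-fold, 2 kinesins were lower, KIF4A and KIF14, which is 4.88% of the 41, beside a background of 4.92% of all genes. Another 3 were higher, KIF24, KIF25 and KIF27, which is 7.32%, beside a background of 6.81%. The shares of kinesins at this size were near those of all genes. Among genes past the floor, 2 of 30 kinesins were lower by this size (background 3.49%) and 0 were higher (background 4.69%). No transport kinesin reached 1.2-fold in either direction, except that with lowess centring KIF3C did, at −0.30, as did the mitotic KIF20B, at −0.27. When each gene was summarised over all of its probe sets, 0 kinesins were lower by this size. No kinesin reached 1.5-fold, which 0.204% of all genes did downwards and 0.237% upwards.

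**Figure D3:**
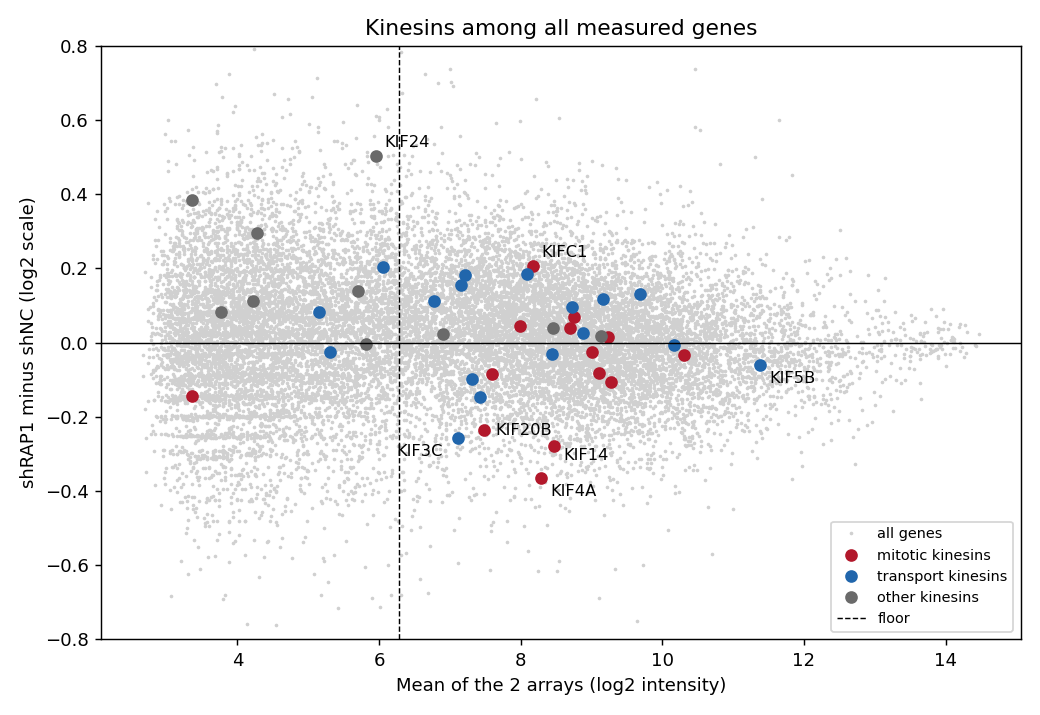
Difference between shRAP1 and shNC against the mean of the 2 arrays, both on the log2 scale, for 18132 genes (grey) and the kinesins (coloured by class), with the floor as a dashed line and 14 genes lying outside the plotted range. The kinesins lie inside the cloud of all genes, with KIF4A at −0.37 and KIF24 at 0.50 nearest its edges.

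The other kinesins were mostly dim. KIF24, which depolymerises microtubules at centrioles and restrains cilium formation, had the highest difference of the family, 52.1 in shNC and 73.8 in shRAP1 (0.50), at rank 104 from the highest of all genes. Both values were below the floor, and its other probe set was at 28.4 and 29.4 (0.05), so the size is uncertain. KIF25 and KIF27 were far below the floor, at 9.03 and 11.8 and at 17.6 and 21.6. Of the 3 genes past the floor, KIF9 was at 556 and 563 (0.02), KIF12 at 119 and 121 (0.02), and KIF26A at 347 and 356 (0.04). KIF7, the Hedgehog pathway regulator of cilium tips, was at 13.2 and 14.0, and KIF6, KIF19 and KIF26B were below the floor too, with differences of 0.11, 0.14 and −0.0050. The class had 9 of 10 genes higher and 1 lower (10%, beside 45.7% of all genes below 0). Its median was 0.10, beside 0.02 over all genes, and most of its members were below the floor. The 3 genes past the floor had a median of 0.02, beside 0.01 over all genes past it.

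CENPE and STARD9, the kinesins named outside the symbol rule, differed little on their brightest probe sets. CENPE, the kinetochore motor that brings chromosomes to the plate, was at 501 and 483 (−0.05). STARD9, a motor of the pericentriolar material, was at 115 and 112 (−0.03), with its other probe set at 0.25. KIFBP, which binds several kinesins and blocks them from microtubules, is counted below with the light chains and associated subunits. It was at 890 and 819 (−0.12), with its other probe set at −0.14.

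The spindle and midzone proteins that work with mitotic kinesins were mostly lower, by small amounts. Of 23 such genes, all past the floor, 19 were lower and 4 higher. Over all genes past the floor 47% were below 0. The median of the 23 was −0.08, beside 0.01 over those genes. At 1.2-fold 0 of the 23 were lower, beside a background of 3.49%, a share that lets a count of 0 say little. The members with the largest sizes were KNSTRN, a kinetochore protein, at 864 and 733 (−0.24), CCNB1, the mitotic cyclin, at 1477 and 1261 (−0.23), NUSAP1, a microtubule bundler, at 734 and 637 (−0.20), and NUMA1, a spindle pole organiser, at 433 and 497 (0.20). The other NUMA1 probe set went the opposite way, at −0.20. The following partners were chosen for their role with their values known. RACGAP1, the other subunit of centralspindlin with KIF23, was at −0.09 with all 3 probe sets lower. PRC1, the partner of KIF4A, was at −0.0054 on its brightest probe set and between −0.14 and −0.0054 over 4. TPX2, which targets KIF11 and KIF15 to the spindle, was at −0.11, and the kinases AURKA and AURKB, which phosphorylate several of these motors, at −0.14 and −0.02. CIT, the partner of KIF14, was at 0.10 on its brightest probe set and at 0.15 on the other.

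Among 13 regulators of late cell cycle transcription, 7 were lower (53.8%, beside 45.7% of all genes) and 6 higher, and the median was −0.04. Of the 12 past the floor 6 were lower (50%, beside 47% of all genes past it). FOXM1, which activates mitotic genes with MuvB, was at 277 and 226 (−0.30), with its 3 probe sets between −0.30 and −0.14. LIN9, a MuvB subunit, was at 97.5 and 81.7 (−0.25), with all 3 probe sets lower. MYBL2, the activating partner of MuvB, was at 228 and 213 (−0.10), and NFYB, a subunit of NF-Y, at 421 and 391 (−0.11) with all 3 probe sets lower. The DNA-binding subunit LIN54, chosen with its values known, was at 0.06.

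Of 15 measured cargo adaptors of transport kinesins, 5 were lower (33.3%, beside 45.7% of all genes) and 10 higher, and the median was 0.06. TRAK2, which couples mitochondria to kinesin, was at 582 and 476 (−0.29), with its other probe sets at −0.44 and 0.06. MAPK8IP2 and MAPK8IP3, scaffold proteins carried by kinesin, were at 0.24 (4 probe sets between −0.09 and 0.40) and 0.14 (all 3 higher), and SYBU, a syntaxin adaptor, at 0.18 with all 4 probe sets higher. The 6 light chain and associated subunit genes had 2 lower (33.3%, beside the same 45.7%) and 4 higher, with a median of 0.03.

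Cytoplasmic dynein with dynactin, the motor of the opposite direction, had 16 of 27 measured genes lower (59.3%, beside 45.7% of all genes). The median was −0.03. DCTN3, a dynactin subunit, was at 749 and 578 (−0.38), and DYNC1I2, a dynein intermediate chain, at 1500 and 1285 (−0.22). The adaptors BICD1 and HOOK2 were higher, at 116 and 152 (0.39) and at 693 and 839 (0.28). Each of these 4 genes rested on 1 probe set.

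**Figure D4:**
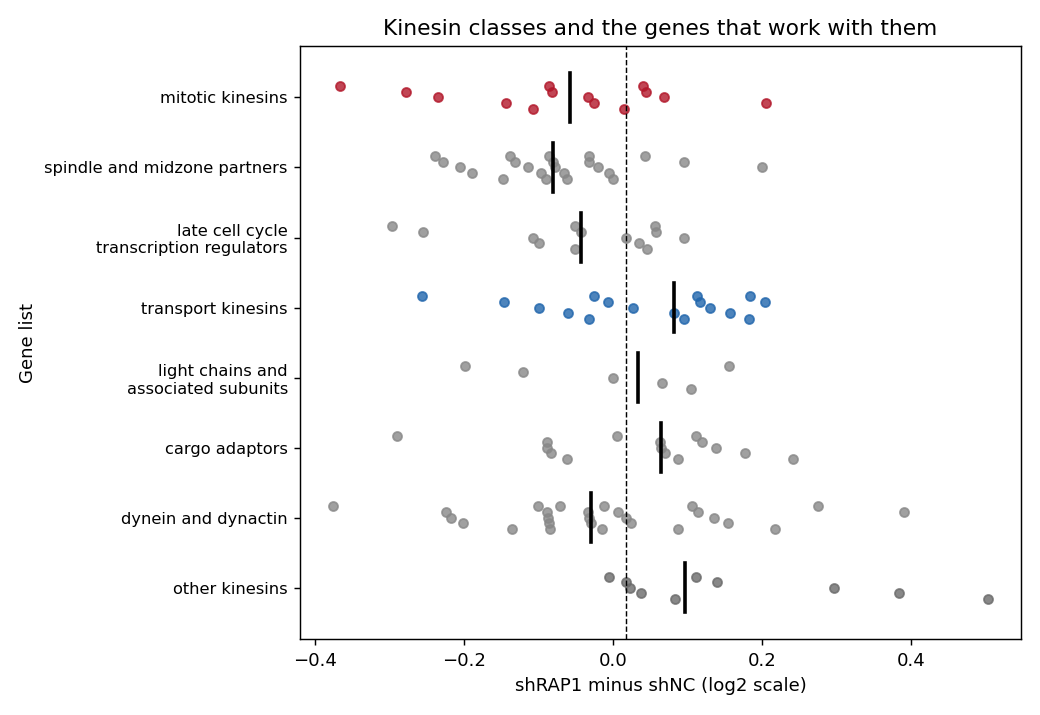
Differences between shRAP1 and shNC on the log2 scale for the genes of each list (points) with the list median (black bar) and the median of all genes (dashed line). The bars of the mitotic kinesins (−0.06) and their spindle partners (−0.08) lie left of the dashed line, and those of the transport kinesins (0.08) and cargo adaptors (0.06) right of it.

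The differences were then set beside the promoter letters. The 10 measured mitotic kinesins with a CHR element had a median of −0.08, with 7 lower. The 4 without one had a median of −0.0090, with 2 lower. Of these 4, the 3 that also lacked an NF-Y box had a median of −0.03, with 2 lower. KIF2B, which was below the floor, is among them. Across all measured genes the element went with little difference. The 2542 genes with a CHR element had a median of 0.0062 and 48.6% were below 0, and the 11883 without one had a median of 0.01 with 46.1% below 0. The 1063 genes with both the CHR element and an NF-Y box had 50.1% below 0, and 5.46% of them were lower by 1.2-fold, beside 5.07% of all 14425 genes with a promoter window. Spindle partners carried the CHR element in 13 of 19 genes with a window (68.4%), close to the share of the mitotic kinesins, while cargo adaptors did in 1 of 12 and dynein and dynactin genes in 2 of 25.

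Where a kinesin had more than 1 distinct probe set past the floor, their directions were compared. Of 14 such genes, the probe sets of 7 all lay on the same side of 0. The same share over all genes was not computed, so whether this is low or usual cannot be said. Probe sets of a gene share the array and the RNA and are not replicates.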

How the data were processed

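Total RNA of 2 HCT116 cultures was extracted with Trizol and labelled by poly(A)-primed in vitro transcription for Affymetrix arrays, per the labels. The authors deposited intensity values per probe set, which the values show to be linear. RMA is the only tool in the submitters' processing notes. The sources used here give neither its version nor the arrays it was run on together. RMA equalises the distributions of arrays normalised together, so differences are relative to other genes. The log2 values were computed here with no pseudocount, and 1 array per group limits the precision and leaves no test.

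Of 49293 non-control probe sets, 44988 carried 1 symbol, 1832 several and 2473 none in the platform annotation; 102 were controls. All 41 kinesin gene identifiers matched RefSeq (GRCh38.p14), and no symbol changed. A gene is its probe set with the highest mean log2 value, with no floor except where stated. Genes were counted at 1.2-fold, beside all genes. Every kinesin, and of each other list the 4 largest differences past the floor, could be named, besides KLC1, KLC2, KLC4, KIFAP3, CENPE, TERF2IP, RAP1A and RAP1B. The members and lists were chosen with earlier results of these data known. Of 34 kinesins with RefSeq promoter windows (250 bases before to 50 after the start), some have several windows, and a gene counts where any holds the motif. The planned comparison of protein sequences was not made, since proteins were not analysed here. Alternatives changed the floor, the probe set rule, the probe sets admitted, the centring, the size, the class summary and the class membership. The arithmetic of the steps was checked on simulated data with planted differences larger than 1.2-fold. All probe sets of a gene were given the same difference there, so the choice of probe set was not tested. Python 3.11.15, numpy 2.4.6, pandas 2.3.3, scipy 1.17.1, statsmodels 0.14.6 and matplotlib 3.10.9 were used.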

Additional observations from a re-analysis of the deposited data

How the results depend on the processing

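No paired analysis was possible because each group held 1 array, and for the same reason no replicate could be left out. Over the alternatives, the median of the mitotic kinesins ran from −0.08 to −0.02, that of the transport kinesins from 0.03 to 0.09 and that of the other kinesins from 0.02 to 0.16. The mitotic minus transport difference ran from −0.17 to −0.06 and kept its sign in all 8. These alternatives reused the same 2 arrays and largely the same values, so the kept sign is no independent check. Picking the brightest probe set by its higher value left the class difference at −0.14, as in the main setting. It shrank to −0.06 for medians over all probe sets, and also when only kinesins past the 75th percentile were kept. The count of mitotic kinesins lower by 1.2-fold (2) was 0 for medians over all probe sets of a gene, 4 at 1.1-fold and 0 at 1.5-fold. The count of all kinesins lower (2) was 0, 6 and 0 in the same order and 4 with lowess centring (span 0.3). The count of kinesins higher (3) was 0 with the floor at the median or the 75th percentile of probe sets, 9 at 1.1-fold and 0 at 1.5-fold. For transport kinesins, the count lower (0) was 1 with lowess centring and 2 at 1.1-fold, and the count higher (0) was 4 at 1.1-fold. Of 209 recomputed differences of single kinesins, 5 moved by more than 1 SD of like genes. Many of the 209 could not move, so this count does not measure stability. A floor only keeps or drops a gene, and the median of 1 probe set is its own value. As medians of all probe sets KIF4A was at −0.20, KIF14 at −0.06 and KIF24 at 0.28, and with _x_at and _s_at probe sets left out KIF2A was at −0.18 and KIF5B at 0.12. KIF2B, KIF15 and KIF27 then had no value. For the 11 kinesins below the floor, signal near background limits what a difference can show.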
